A study of Mus musculus with 94 samples.

Results

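The 10 genes described here carry out cytosolic DNA sensing and the control of its messenger cGAMP, and they were taken by symbol from a gene matrix of 49080 genes measured by total RNA-Seq of whole tumors. They are the DNA sensors Cgas, Aim2 and Zbp1, the adaptor Sting1, the kinases Tbk1 and Ikbke, the nucleases Trex1 and Samhd1, the cGAMP hydrolase Enpp1 and the transporter Slc19a1. On GRCm38 (GENCODE M21) the sensors are annotated as Cgas at chr9:78430526-78443237 (minus strand), Aim2 at chr1:173350879-173466040 (plus strand) and Zbp1 at chr2:173206612-173218923 (minus strand). Sting1 is at chr18:35733679-35740554 (minus strand) under its older symbol Tmem173. The kinases are Tbk1 at chr10:121546455-121586787 (minus strand) and Ikbke at chr1:131254343-131279606 (minus strand). The nucleases are Trex1 at chr9:109057933-109059734 (minus strand) and Samhd1 at chr2:157097533-157135265 (minus strand). Enpp1 is at chr10:24637914-24712159 (minus strand) and Slc19a1 at chr10:77032241-77061002 (plus strand). All 10 passed the filter on low counts on every day, and also when all tumors were fitted together, where 29373 genes were tested. The tumors grew from 4T1, a mouse mammary carcinoma line that serves as a model of triple negative breast cancer, after implantation at 8 weeks of age into the right hind limb of female BALB/c mice. Treatment began once a tumor measured 100 to 200 mm3. X-rays were directed at the tumor-bearing leg, and lead shielding covered the rest of the body. The mice received 1 dose of 6 Gy of x-rays (IR) together with indomethacin, an inhibitor of the prostaglandin-forming cyclooxygenases, at 30 mg/L in the drinking water until harvest (6 Gy + INDO, 24 tumors), IR alone (6 Gy, 25 tumors), the drug alone (INDO, 25 tumors) or neither (control, 20 tumors). Tumors were taken on days 1, 3, 7, 15 and 23, which the paper counts from IR. Groups held 5 tumors each, with exceptions. These were 6 Gy + INDO on day 3 (4 tumors) and control on day 1 (4 tumors), day 15 (3 tumors) and day 23 (3 tumors). All tumors came from the same cell line, and each library pooled cancer cells with the host cells of that tumor.

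DNA does not belong in the cytosol, and when it appears there, from a pathogen, a ruptured micronucleus or a damaged mitochondrion, cGAS binds it and makes the cyclic dinucleotide cGAMP. STING, an adaptor in the endoplasmic reticulum membrane, binds cGAMP, moves to the Golgi and recruits TBK1 and the related kinase IKKε (gene Ikbke), which activate the transcription factor IRF3 and with it type I interferon genes. TREX1 and SAMHD1 remove or limit the nucleic acids that start the signal, ENPP1 hydrolyzes cGAMP outside cells, and SLC19A1 was identified as a cGAMP importer in human cells, so its role in mouse tumors is not taken for granted here. AIM2 instead assembles an inflammasome on DNA, and ZBP1 binds Z-form nucleic acids and can trigger cell death through RIPK3. Several of these genes, among them Zbp1, Aim2 and Samhd1, are themselves induced by interferon.

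The promoters of 3 members are shown. Samhd1 is the member whose window held an interferon-type motif. The kinase genes Tbk1 and Ikbke, whose products share substrates, were picked with their differing treatment responses known. Whether promoter makeup has a part in any response was not tested. RefSeq windows (GRCm38.p6) were at hand for 8 of the 10 members, in 10 windows. In the Samhd1 promoter (chr2:157135097-157135346, minus strand), capitals mark TTCGGAGAA, a match to the interferon-γ-type GAS motif TTCNNNGAA at 235 to 227 bases before the RefSeq start site. RefSeq and GENCODE starts differ, and the Samhd1 and Ikbke windows overlap the GENCODE gene bounds given above. In the Tbk1 (chr10:121586795-121587044, minus strand) and Ikbke (chr1:131279564-131279813, minus strand) promoters, capitals mark CG dinucleotides.
Samhd1: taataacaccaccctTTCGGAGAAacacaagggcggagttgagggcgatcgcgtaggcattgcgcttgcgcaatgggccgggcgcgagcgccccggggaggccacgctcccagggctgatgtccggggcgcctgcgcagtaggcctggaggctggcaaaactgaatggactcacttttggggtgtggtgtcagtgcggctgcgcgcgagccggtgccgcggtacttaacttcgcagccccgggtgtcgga
Tbk1: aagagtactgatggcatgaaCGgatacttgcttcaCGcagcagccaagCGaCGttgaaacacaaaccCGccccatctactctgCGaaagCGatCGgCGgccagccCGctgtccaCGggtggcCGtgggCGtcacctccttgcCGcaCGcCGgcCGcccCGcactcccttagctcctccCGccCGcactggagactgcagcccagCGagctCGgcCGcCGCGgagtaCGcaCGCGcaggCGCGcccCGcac
Ikbke: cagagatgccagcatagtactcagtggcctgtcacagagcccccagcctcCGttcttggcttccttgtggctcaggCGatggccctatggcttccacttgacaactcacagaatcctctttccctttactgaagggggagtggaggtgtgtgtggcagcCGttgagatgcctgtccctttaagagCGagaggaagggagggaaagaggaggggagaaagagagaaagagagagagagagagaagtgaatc
The Tbk1 window held 31 CG dinucleotides at a GC content of 68.4%, and the Ikbke window held 4 at 54.4%, against a median of 6 over 32851 promoter windows of mouse genes. As many CG dinucleotides as in Tbk1 or fewer were found in 95.4% of all windows, and as many as in Ikbke or fewer in 44.4%. Motifs were searched on both strands of longer windows, which added 50 bases downstream to the 250 bases used for the CG counts. The GAS letters were found in 8.3% of all windows and in 1 of the 10 member windows, the interferon-stimulated response element in 3.44% and in 0 of 10, and the NF-kB motif in 1.63% and in 0 of 10. These matches describe letters and say nothing of factor binding in these tumors.

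Library totals ranged between 20995830 and 74878540 counts in 6 Gy + INDO tumors, 34777090 and 109300093 in 6 Gy tumors, 24004298 and 89038939 in INDO tumors, and 29355786 and 96476248 in control tumors. In 11 of the 94 tumors, odorant and vomeronasal receptor genes summed to 338 to 1650 CPM, against 41.3 to 147 CPM in the other 83. Of these 11, 8 were 6 Gy + INDO tumors (replicates 1, 2 and 4 on day 3, replicates 2, 3 and 5 on day 7, and replicates 2 and 4 on day 23), 2 were INDO tumors (day 1 replicate 5, day 15 replicate 3) and 1 was a control tumor (day 15 replicate 1). INDO day 3 replicate 3 summed to 214 CPM over T cell markers and 502 CPM over B cell markers, and no other tumor passed 55.9 CPM on either list. The study scaled to housekeeping genes, and a list of 14 common ones, not taken from the study, stood in for them as an alternative. In 6 Gy + INDO over days, 9 of these 14 were called lower and 1 higher, with a median log2 fold change of -0.30 against 0.19 over all genes. Scaling to them moved the median of all genes by 0.209 in 6 Gy + INDO, by -0.026 in 6 Gy and by 0.098 in INDO (log2, mean over days), and changed the higher share of all called genes to 82.8%, 32.2% and 68.9%, where the scaling used here (TMM) gave 56.0%, 46.4% and 49.1%. Values below are CPM, counts of a gene as a share of the library total after TMM scaling. Log2 fold changes stand beside their standard errors, and a gene was called where its edgeR quasi-likelihood p, adjusted by the Benjamini-Hochberg method over all genes tested, was under 0.05.

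The members did not move as a block. Sting1 was lower than control in all 3 treatments, Slc19a1 was lower in 6 Gy + INDO, Enpp1 was lower in all 3 treatments over days, and Ikbke was higher in both INDO-containing arms, while Cgas, Tbk1 and Aim2 passed the test against control on no day. Against control, 3 of 10 members were called in 6 Gy + INDO on day 1 (all lower, where 13.3% of all genes were called lower), 2 on day 3 (both lower, 9.43%) and 2 on day 7 (both lower, 21.2%). In 6 Gy, 1 member was called on day 1 (lower, 9.43% of all genes), 1 on day 3 (lower, 4.1%) and 4 on day 7 (all lower, 10.3%). In INDO, 1 was called on day 1 (lower, 8.89%) and 2 on day 7, 1 lower (11.7%) and 1 higher (12.7%). Averaged over the 5 days, 4 members were called in 6 Gy + INDO, 1 higher and 3 lower (29.6% and 23.2% of all genes), 2 in 6 Gy, both lower (10.6%), and 4 in INDO, 2 higher and 2 lower (16.8% and 17.4%). The members' median log2 fold change over days was -0.09 in 6 Gy + INDO, -0.11 in 6 Gy and 0.05 in INDO, beside 0.19, 0.03 and 0.07 over all genes.

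No member was called by edgeR on day 15 or day 23 in any treatment, or in INDO on day 3. Of all genes 1.33% were called in 6 Gy + INDO on day 15 and 0.00473% on day 23, and 0% in 6 Gy and in INDO at both times. At an unadjusted p under 0.05 the counts of members were 2 (Tbk1 and Ikbke) in 6 Gy + INDO, 0 in 6 Gy and 1 (Ikbke) in INDO on day 15, and 0 in all 3 on day 23. DESeq2 called 1 member (Ikbke) in 6 Gy + INDO on day 15 and 0 in the other 5 of these comparisons. In INDO on day 3, where 6.33% of all genes were called, 6 members passed the unadjusted threshold, 5 of them higher, and DESeq2 called 2 (Ikbke and Zbp1). With 3 control tumors on each of days 15 and 23, the intervals there are wide. For Sting1 on day 23 the 95% interval of the log2 fold change in 6 Gy + INDO ran from -0.62 to 0.42.

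**Figure D1:**
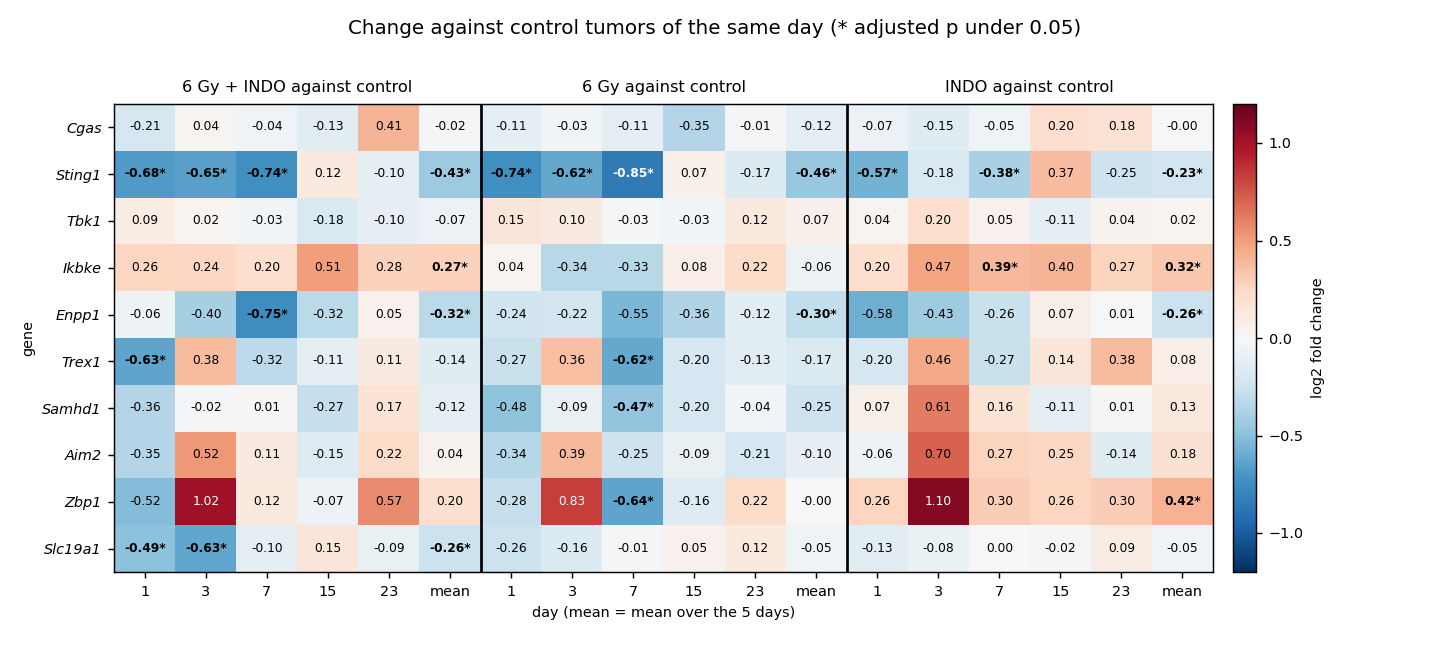
Log2 fold change of each of the 10 members (rows) against control on each day and as the mean over the 5 days (columns), for 6 Gy + INDO, 6 Gy and INDO; color and the printed value give direction and size, and an asterisk marks a call at an adjusted p under 0.05. Sting1 is blue on days 1, 3 and 7 in all 3 treatments, and no asterisk stands on day 15 or 23.

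Against control, Sting1 had the most calls and the largest called change of the 10 genes. On day 1 Sting1, the adaptor that receives cGAMP, was at 26.4, 28.9, 28.02, 25.1 and 25.2 CPM in 6 Gy + INDO tumors, 24.3, 27.9, 28.3, 25.8 and 21.6 CPM in 6 Gy tumors and 32.7, 30.3, 25.6, 28.7 and 23.9 CPM in INDO tumors, against 49.97, 37.5, 37.4 and 46.8 CPM in control tumors. Every treated tumor lay below every control tumor on that day. The log2 fold changes were -0.68 ± 0.11, adjusted p = 0.00021 in 6 Gy + INDO, -0.74 ± 0.11, adjusted p = 0.00014 in 6 Gy and -0.57 ± 0.11, adjusted p = 0.0017 in INDO. In bulk tumors fewer cells of a type and less RNA per cell cannot be told apart, here or in any result below. On day 3 it was at 20.5, 25.9, 32.3 and 33.5 CPM in 6 Gy + INDO, 30.7, 28.4, 32.5, 28.98 and 26.5 CPM in 6 Gy and 52.1, 30.1, 42.4, 31.6 and 40.6 CPM in INDO, against 42.9, 49.9, 49.2, 37.3 and 45.9 CPM in control tumors. The irradiated groups again did not overlap with control, as was so for 7.52% of all genes in 6 Gy + INDO and 4.29% in 6 Gy (-0.65 ± 0.17, adjusted p = 0.012 and -0.62 ± 0.15, adjusted p = 0.022), while INDO tumors spread across the control range (-0.18 ± 0.15, adjusted p = 0.46). On day 7 the values were 31.8, 29.1, 28.9, 34.02 and 22.8 CPM in 6 Gy + INDO, 33.2, 25.5, 32.05, 28.6 and 24.6 CPM in 6 Gy and 35.1, 30.01, 37.4, 46.2 and 41.1 CPM in INDO, against 49.5, 57.03, 49.6, 46.3 and 56.2 CPM in control tumors, with no overlap in any of the 3 comparisons (-0.74 ± 0.12, adjusted p = 0.00016, -0.85 ± 0.12, adjusted p = 0.00011 and -0.38 ± 0.11, adjusted p = 0.023). Of all genes, 10.9%, 7.32% and 9.29% had no overlap with control in the lower direction in these treatments on day 1, and 9.09%, 6.47% and 8.04% on day 7.

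From day 15 the Sting1 groups lay close together, and on day 15 the control tumors were lower than on day 7. On day 15 the means were 34.7 ± 5.35 CPM in 6 Gy + INDO, 33.6 ± 5.37 CPM in 6 Gy and 40.9 ± 12.1 CPM in INDO (SD, n = 5 each), against 31.5 ± 3.69 CPM in control tumors (SD, n = 3). On day 23 they were 36.6 ± 12.8, 35.4 ± 3.13 and 33.3 ± 9.74 CPM, against 39.9 ± 7.18 CPM in control. The change differed between days in 6 Gy + INDO (adjusted p = 0.006, edgeR F test over the 5 days) and in 6 Gy (0.041), where 33.6% and 3.82% of all genes passed, and in INDO it did not pass (0.093, with 2.66% of all genes passing). Both results rested on day 15, without which the adjusted p was 0.2 in 6 Gy + INDO and 0.41 in 6 Gy. Both were lost with the receptor covariate (0.053 in each), and the 6 Gy result also with no filter (0.083) and without day 1 (0.068) or day 7 (0.13). The Sting1 level itself differed between days in control (edgeR F test, adjusted p = 0.031) and INDO (0.043), where 30.2% and 25.9% of all genes passed. It did not pass in 6 Gy + INDO (0.057) or 6 Gy (0.12). The control result was lost without day 15 (0.49) and the INDO result without day 1 (0.56). With housekeeping scaling neither passed (0.13 and 0.12) and 6 Gy did (0.017). With the receptor covariate control did not pass (0.16) and 6 Gy + INDO did (0.047). Averaged over days, Sting1 was -0.43 ± 0.08, adjusted p = 5e-06 in 6 Gy + INDO, -0.46 ± 0.08, adjusted p = 4e-06 in 6 Gy and -0.23 ± 0.08, adjusted p = 0.018 in INDO. The falls on days 1 and 7 and over days in both irradiated arms, and on day 1 in INDO, passed without any single tumor, day or replicate number and under every alternative run except the study's rule of 2-fold and p under 0.05, which no Sting1 change met and which is left out wherever every alternative is named below, although with housekeeping scaling the 6 Gy + INDO changes shrank to -0.46 on day 7 and -0.24 over days. The others were less stable. The day 3 call in 6 Gy + INDO was lost with housekeeping scaling (-0.35, adjusted p = 0.11), with the receptor covariate (-0.38, 0.57), and once the tumors high in receptor reads were left out (-0.46, 0.47), leaving 1 tumor in that group, and the day 3 call in 6 Gy was lost without 6 Gy replicate 2 (0.058). The day 7 call in INDO was lost without INDO replicate 2 (0.058), control replicate 2 (0.054) or control replicate 5 (0.057) and with housekeeping scaling (-0.21, 0.23), and the INDO call over days was lost without day 1 (-0.15, 0.24), day 3 (0.063), day 7 (-0.15, 0.29), replicate 2 (0.14) or replicate 3 (0.15) and with housekeeping scaling (-0.12, 0.25) or the receptor covariate (0.052).

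Markers of endothelial cells, in which STING is known to be abundant, were lower on the same days, and those of macrophages, another such cell type, were lower on day 1 in all 3 treatments and on day 7 in the irradiated arms. The summed level of 5 endothelial markers (Pecam1, Cdh5, Kdr, Tek and Emcn) ranged from 71.3 to 119 CPM in 6 Gy + INDO, 80.3 to 127 CPM in 6 Gy and 82.0 to 134 CPM in INDO on day 1, against 183 to 252 CPM in control tumors. On day 7 it ranged from 47.1 to 109, 70.0 to 141 and 83.4 to 132 CPM in the same treatments, against 179 to 356 CPM in control tumors, and on day 15 from 85.3 to 126, 81.9 to 132 and 62.8 to 170 CPM, against 84.8 to 111 CPM in control. Called lower in 6 Gy + INDO, 6 Gy and INDO were 5, 4 and 4 of the 5 genes on day 1, 4 in each treatment on day 3 and 5 in each on day 7, against 0 on days 15 and 23, with none higher on any day under housekeeping scaling. Of all genes 13.3%, 9.43% and 8.89% were called lower on day 1. The shares were 9.43%, 4.1% and 3.95% on day 3 and 21.2%, 10.3% and 11.7% on day 7. On days 15 and 23 at most 0.552% were, so the counts of 0 there say little of the levels. On day 23 the endothelial sum ranged from 86.4 to 136, 59.9 to 137 and 64.5 to 166 CPM, against 112 to 193 CPM in control. The summed level of 7 macrophage markers (Adgre1, Csf1r, Cd68, Mrc1, C1qa, C1qb and Siglec1) ranged from 488 to 620, 463 to 744 and 514 to 606 CPM on day 1, against 1370 to 1940 CPM in control tumors. On day 7 it ranged from 472 to 751 and 455 to 724 CPM in 6 Gy + INDO and 6 Gy and from 641 to 1570 CPM in INDO, against 853 to 1980 CPM in control tumors, and on day 15 from 497 to 704, 311 to 560 and 522 to 1060 CPM, against 430 to 541 CPM in control. On day 3 it ranged from 428 to 696, 581 to 684 and 407 to 1430 CPM, against 865 to 1710 CPM in control. On day 23 it ranged from 399 to 828, 219 to 512 and 394 to 885 CPM, against 690 to 759 CPM in control. Of the 7 macrophage genes, 5 were called lower in each treatment on day 1. The macrophage counts in 6 Gy + INDO, 6 Gy and INDO were 2, 1 and 0 at day 3 and 5, 7 and 0 at day 7. None of these endothelial and macrophage genes was at 0 in any tumor. Fibroblast and adipocyte genes were lower as well. On day 1, 3, 5 and 4 of 6 fibroblast markers were called lower in 6 Gy + INDO, 6 Gy and INDO. The fibroblast counts at day 3 were 6, 4 and 6, and those at day 7 were 6, 5 and 5. All 5 adipocyte markers were called lower in each treatment on day 1. The adipocyte counts at day 3 were 3, 1 and 3, and those at day 7 were 3, 5 and 4. On day 1 the counts were also 6, 6 and 5 of 6 T cell and 5, 6 and 6 of 6 dendritic cell markers. The part of any of these cells in the Sting1 result was not tested.

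**Figure D2:**
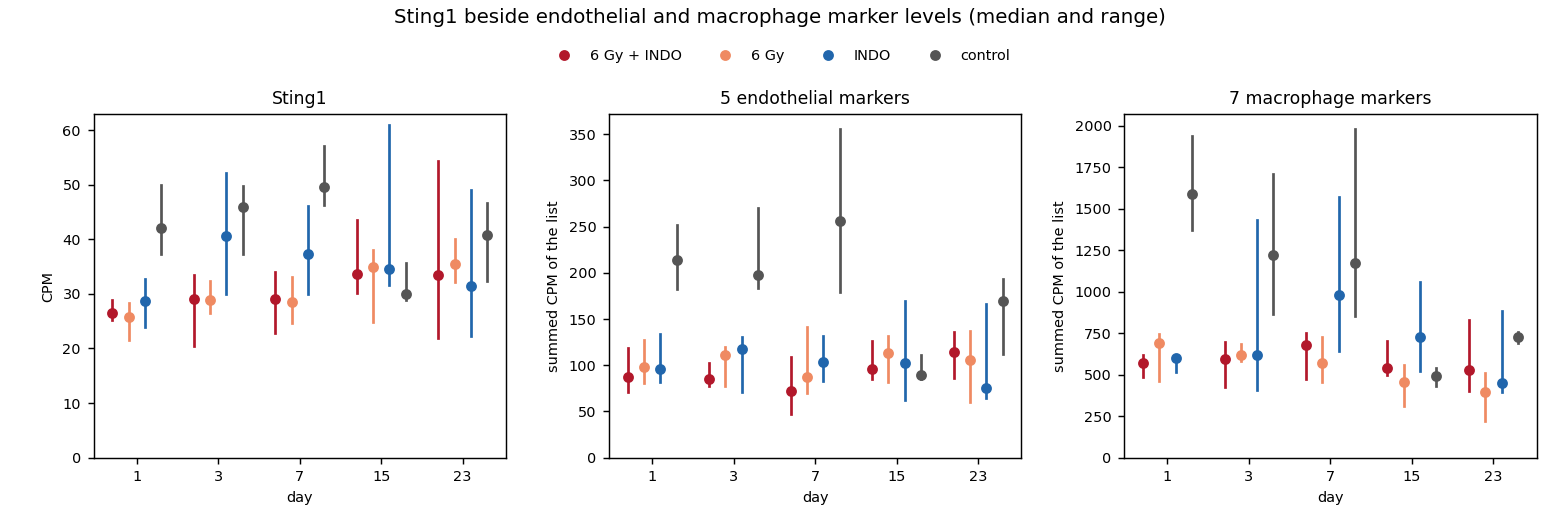
Sting1 CPM and the summed CPM of 5 endothelial and 7 macrophage marker genes by day, for the 4 treatments; points are medians over tumors and bars run from the lowest to the highest tumor. Control lies above the treated groups on days 1, 3 and 7 for the endothelial markers and for Sting1, except INDO on day 3, and the groups meet on day 15.

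The sensor Cgas itself differed between days and passed the test against control on no day. On day 1, the day with its smallest adjusted p against control, it was at 18.01, 19.6, 19.4, 18.3 and 14.7 CPM in 6 Gy + INDO, 19.04, 13.4, 22.3, 19.6 and 22.1 CPM in 6 Gy and 19.8, 20.6, 17.1, 19.7 and 20.1 CPM in INDO, against 21.04, 20.1, 21.7 and 20.9 CPM in control tumors. All 6 Gy + INDO tumors lay below all control tumors, by less than the test calls (-0.21 ± 0.12, adjusted p = 0.22). Averaged over days the log2 fold changes were -0.02 ± 0.08, adjusted p = 0.97, -0.12 ± 0.08, adjusted p = 0.32 and 0.00 ± 0.08, adjusted p = 1 in 6 Gy + INDO, 6 Gy and INDO, with 95% intervals of -0.17 to 0.14, -0.27 to 0.04 and -0.16 to 0.15. Housekeeping scaling turned the first of these to a call in the other direction (0.20, 0.046), a shift of the size by which that scaling moved all genes. Between days 1 and 23 the group means were 17.98 ± 1.97 and 12 ± 1.68 CPM in 6 Gy + INDO, 19.3 ± 3.60 and 9.14 ± 0.982 CPM in 6 Gy, 19.5 ± 1.39 and 10.3 ± 2.26 CPM in INDO (SD, n = 5 each), and 20.9 ± 0.683 (SD, n = 4) and 9.23 ± 4.65 CPM (SD, n = 3) in control. The level differed between days in every arm (edgeR adjusted p = 0.0032, 3.3e-07, 0.00023 and 5.6e-05 in 6 Gy + INDO, 6 Gy, INDO and control), against 43.6%, 23.3%, 25.9% and 30.2% of all genes. In 6 Gy + INDO and in INDO that result was lost without day 1 (0.28 and 0.21), and in 6 Gy and control it was not. Exons of Cgas overlap a pseudogene on the opposite strand, Gm8093.

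Aim2, the inflammasome sensor, was the member with the lowest counts and passed against control on no day. On day 3, its day of smallest adjusted p, it was at 6.74, 10.1, 5.95 and 7.67 CPM in 6 Gy + INDO, 11.1, 7.33, 6.50, 6.22 and 4.69 CPM in 6 Gy and 8.51, 5.72, 14.8, 4.65 and 10.4 CPM in INDO, against 6.25, 5.32, 5.44, 5.08 and 5.17 CPM in control tumors. The control tumors were close together, and the treated tumors ran from below to above their range (0.70 ± 0.27, adjusted p = 0.12 in INDO). Without INDO replicate 3, which had high T and B cell markers and the highest of the INDO values, the INDO difference was 0.44 (0.28). Like Zbp1, it was lowest on day 1: the means on days 1 and 7 were 3.90 ± 0.753 and 8.54 ± 2.83 CPM in 6 Gy + INDO, 3.92 ± 1.18 and 7.05 ± 1.74 CPM in 6 Gy, 4.68 ± 0.6 and 9.66 ± 0.933 CPM in INDO (SD, n = 5 each), and 5.01 ± 0.635 (SD, n = 4) and 8.37 ± 2.79 CPM (SD, n = 5) in control. Levels differed between days in 6 Gy + INDO (adjusted p = 0.0014), 6 Gy (0.019) and INDO (0.0074) and missed the threshold in control (0.054). Without day 1 none of the 3 held (0.74, 0.96 and 0.67).

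Zbp1, the sensor of Z-form nucleic acids, had the largest ratio of highest to lowest tumor among the 10 genes, with 17.3 to 172 CPM over the series. On day 3 it averaged 108 ± 40.9 CPM in 6 Gy + INDO (SD, n = 4), 97.8 ± 45.4 CPM in 6 Gy and 117 ± 42.4 CPM in INDO, against 54.95 ± 30.6 CPM in control tumors (SD, n = 5 each). None of these differences was called by edgeR within the day, and tumors within a group differed widely (1.02 ± 0.40, adjusted p = 0.081, 0.83 ± 0.38, adjusted p = 0.19 and 1.1 ± 0.39, adjusted p = 0.087). With all tumors in 1 fit and with DESeq2, Zbp1 was called higher on day 3 in 6 Gy + INDO (0.97, adjusted p = 0.017, and 1.06, 0.04) and in INDO (1.09, 0.026, and 1.11, 0.033), and with housekeeping scaling in 6 Gy + INDO (1.31, 0.031). On day 7 it was at 110, 40.95, 98.3, 102 and 90.5 CPM in 6 Gy + INDO, 76.7, 48.6, 44.97, 54.1 and 53.3 CPM in 6 Gy and 103, 88.9, 99.96, 106 and 109.6 CPM in INDO, against 99.5, 65.2, 80.2, 117 and 68.8 CPM in control tumors. Only 6 Gy was called, lower (-0.64 ± 0.21, adjusted p = 0.049), and 4 of its 5 tumors lay below every control tumor. That call stood at the threshold and was lost without any 1 of 7 of the 10 tumors (6 Gy replicates 2 to 5 and control replicates 1, 3 and 4, adjusted p up to 0.12) and under 5 of the alternatives (up to 0.21). Over days Zbp1 was higher in INDO (0.42 ± 0.15, adjusted p = 0.028), a call lost without day 3 (0.27, 0.2), day 7 (0.059) or day 15 (0.052) and without replicate 1 (0.098), 2 (0.079), 3 (0.061) or 5 (0.087), and it was 0.20 ± 0.16, adjusted p = 0.31 in 6 Gy + INDO and 0.00 ± 0.15, adjusted p = 1 in 6 Gy. Levels differed between days in 6 Gy + INDO (0.00022), 6 Gy (0.0039) and INDO (0.01) and not in control (0.078), and none of the 3 passed without day 1 (0.4, 0.094 and 0.12).

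**Figure D3:**
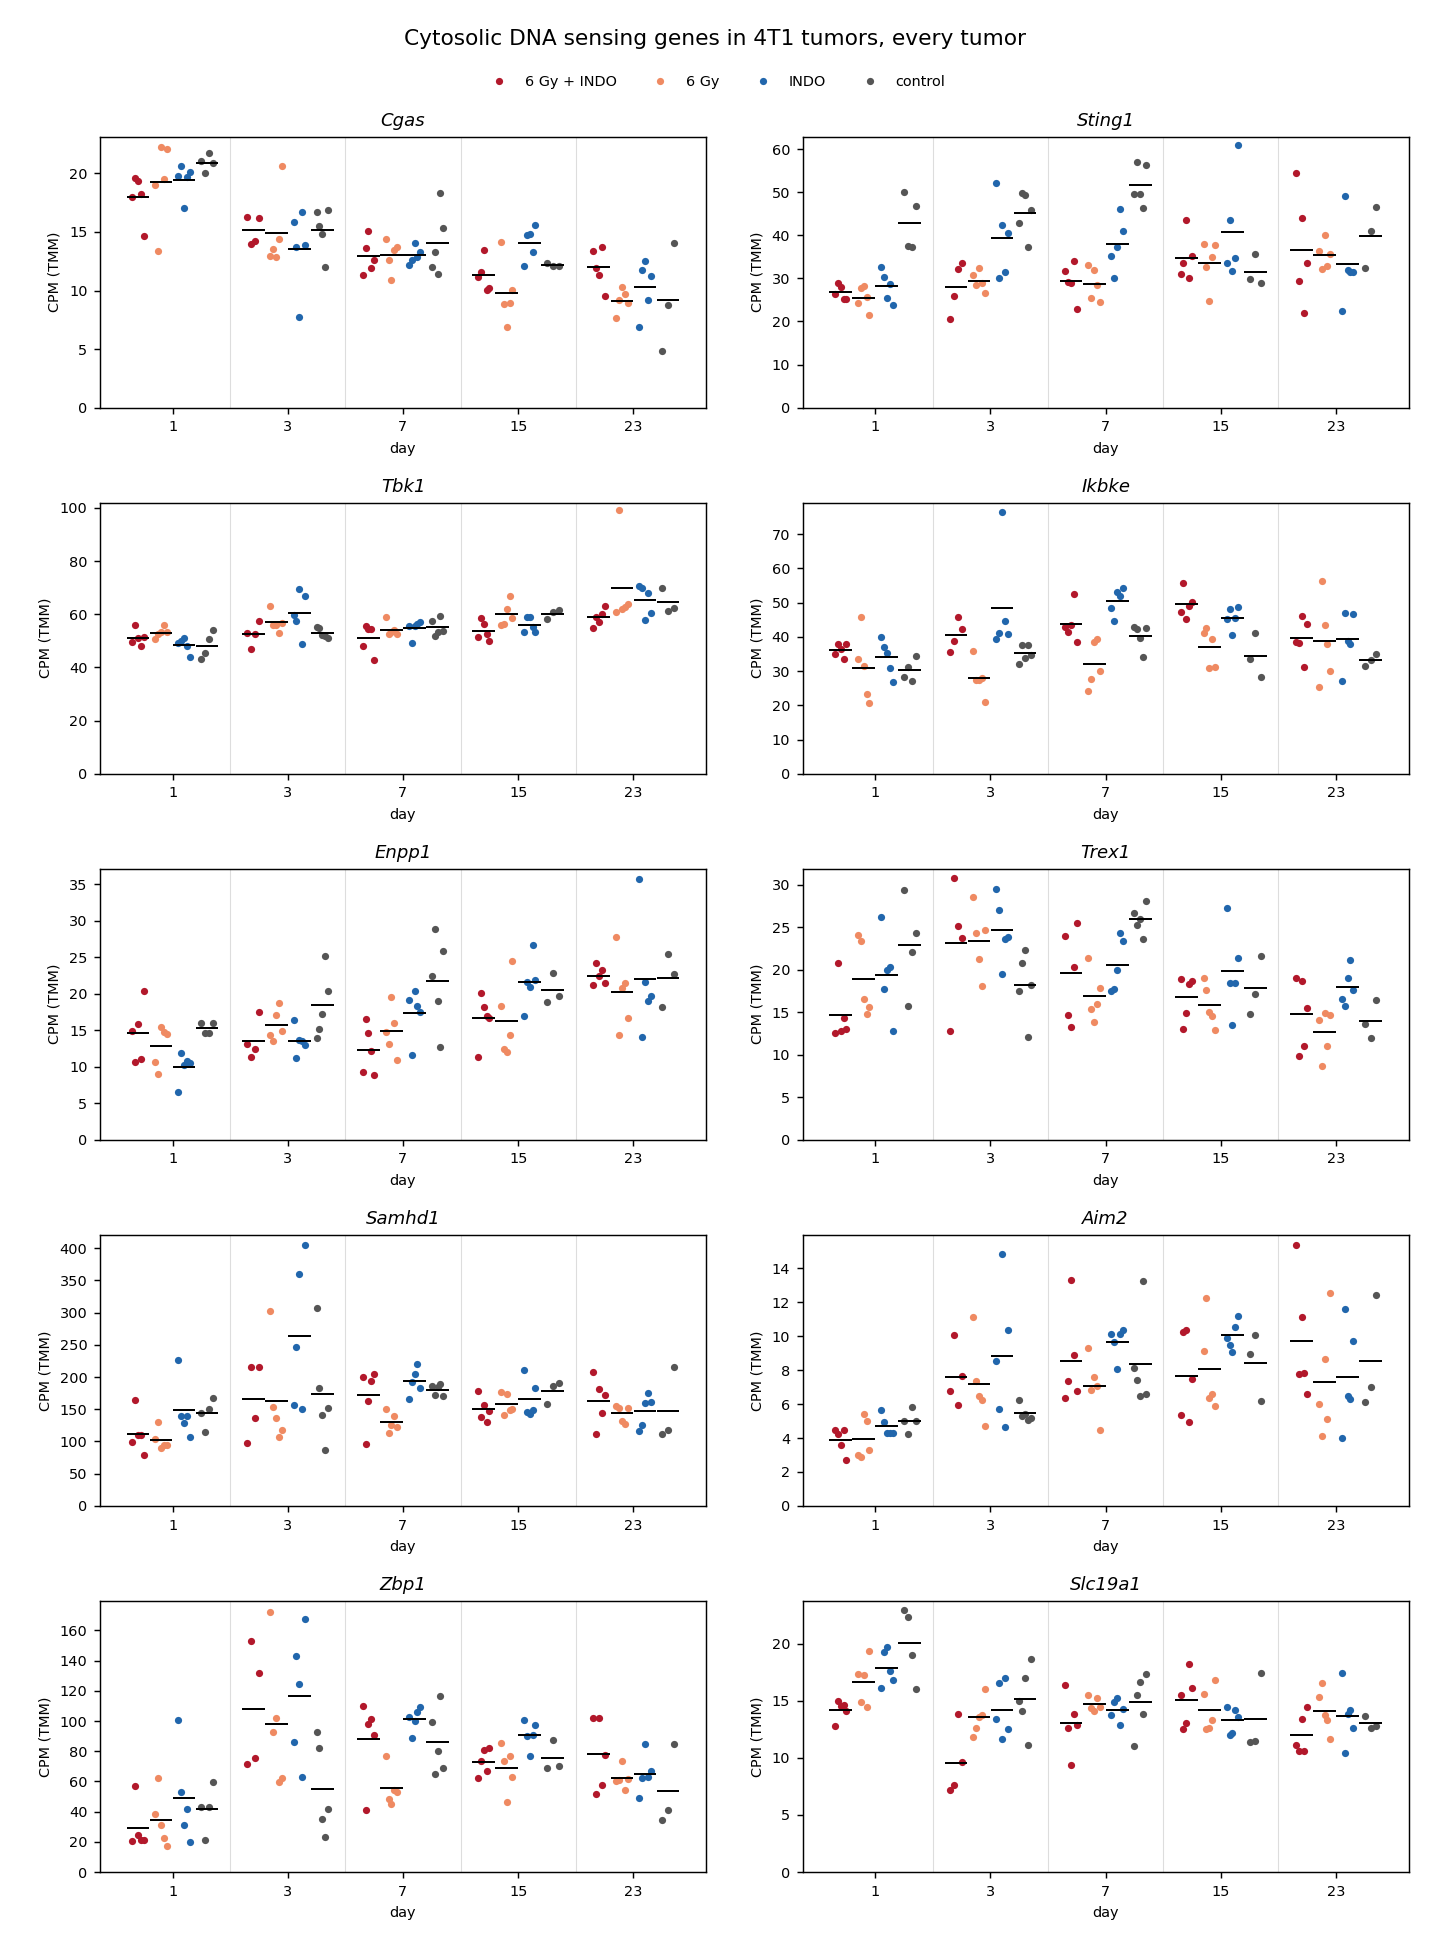
CPM of each member in every tumor by day, 1 panel per gene; points are tumors, bars are group means, and treatments run 6 Gy + INDO, 6 Gy, INDO and control within a day. Sting1 control tumors stand above the rest on days 1, 3 and 7 apart from overlap with INDO on day 3, Cgas is highest on day 1 in all 4 treatments, and Zbp1 and Samhd1 tumors spread widely on day 3.

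The kinases behaved differently from each other. TBK1 phosphorylates STING and IRF3, and its gene had the smallest standard errors of the 10 over days. On day 3 Tbk1 was at 52.9, 46.8, 52.6 and 57.4 CPM in 6 Gy + INDO, 63.1, 55.8, 56.01, 52.98 and 56.7 CPM in 6 Gy and 59.5, 57.3, 69.5, 48.9 and 66.9 CPM in INDO, against 55.1, 54.7, 52, 51.7 and 50.9 CPM in control tumors. The groups overlapped, and no difference was called (INDO, 0.20 ± 0.09, adjusted p = 0.17, lay farthest from control). Over days the 95% intervals of the log2 fold changes were -0.15 to 0.01 in 6 Gy + INDO, -0.01 to 0.15 in 6 Gy and -0.06 to 0.10 in INDO. Only the combination against IR alone was called (-0.13 ± 0.04, adjusted p = 0.003), and this direction flips with housekeeping scaling (0.11, 0.075). That scaling also gave calls in 6 Gy + INDO against control, higher on day 7 (0.26, 0.023) and over days (0.14, 0.024). Levels differed between days in 6 Gy, INDO and control (adjusted p = 0.00058, 0.00048 and 0.0056) and did not pass in 6 Gy + INDO (0.16). On day 1 the means were 53.1 ± 1.96, 48.4 ± 2.77 and 48.2 ± 4.97 CPM in 6 Gy, INDO and control, and on day 23 69.7 ± 16.5, 65.3 ± 5.74 and 64.4 ± 4.75 CPM. The 6 Gy and control results were lost without day 23 (0.37 and 0.057), and the INDO and control results without day 1 (0.08 and 0.14) and with housekeeping scaling (0.21 and 0.072).

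IKKε shares substrates with TBK1 and unlike it is inducible. Ikbke was higher in the arms with INDO. On day 7 it was at 42.97, 41.4, 43.5, 52.6 and 38.5 CPM in 6 Gy + INDO, 24.2, 27.6, 38.6, 39.4 and 30.1 CPM in 6 Gy and 48.5, 44.5, 53.2, 52.1 and 54.1 CPM in INDO, against 42.9, 42.2, 39.6, 34.2 and 42.5 CPM in control tumors. The lowest INDO tumor lay above the highest control tumor (0.39 ± 0.12, adjusted p = 0.03), which was so in the higher direction for 4.65% of all genes, while 3 of the 5 6 Gy tumors lay below the control range and 2 within it (-0.33 ± 0.12, adjusted p = 0.074). The INDO call on day 7 was lost without INDO replicate 3 (0.053) or 5 (0.057) or control replicate 3 (0.061), 4 (0.083) or 5 (0.051), with all tumors in 1 fit (0.14) and with no filter (0.15). On day 15, 6 Gy + INDO tumors (47.2, 55.9, 45.3, 49.1 and 50.2 CPM) lay above all control tumors (33.5, 41.2 and 28.3 CPM), as 5.22% of all genes did, but missed the threshold (0.51 ± 0.13, adjusted p = 0.063). Over days Ikbke rose in 6 Gy + INDO (0.27 ± 0.08, adjusted p = 0.0021) and in INDO (0.32 ± 0.08, adjusted p = 0.00063) and not in 6 Gy (-0.06 ± 0.08, adjusted p = 0.68). The INDO result over days passed under every alternative and without any day or replicate number, and the 6 Gy + INDO result was lost without day 15 (0.17, 0.086) or replicate 3 (0.053). On day 3 the INDO difference of 0.47 ± 0.16, adjusted p = 0.085 included replicate 3, the tumor with high T and B cell markers, at 76.5 CPM beside 39.3 to 44.5 CPM in the other 4, and was 0.25 (0.2) without it. Ikbke exons overlap antisense transcripts Gm28913 and Gm28914.

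The direct comparison of the arms gave the same gene. Against 6 Gy alone, 6 Gy + INDO tumors had more Ikbke on day 3 (0.58 ± 0.17, adjusted p = 0.028), day 7 (0.53 ± 0.12, adjusted p = 0.015) and over days (0.34 ± 0.07, adjusted p = 0.00011), where 9.78%, 10.1% and 25.9% of all genes were called higher. On day 3 the values were 35.6, 38.7, 45.7 and 42.4 CPM in 6 Gy + INDO, against 35.8, 27.4, 27.3, 28.01 and 20.9 CPM in 6 Gy, with overlap in only the lowest 6 Gy + INDO tumor. The result over days passed under every alternative, day and replicate number, also without the tumors high in receptor reads. The single days did not: day 3 was lost without 6 Gy + INDO replicate 2 (0.071) or 4 (0.057), 6 Gy replicate 2 (0.053) or 5 (0.073), or the tumors high in receptor reads (0.74, 0.4), and day 7 without 6 Gy replicate 1 (0.05 after rounding) or those tumors (0.61, 0.082), and both with the receptor covariate (0.34 and 0.21). INDO and 6 Gy + INDO differed by -0.05 ± 0.07, adjusted p = 0.78 over days, with a 95% interval of -0.19 to 0.09.

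**Figure D4:**
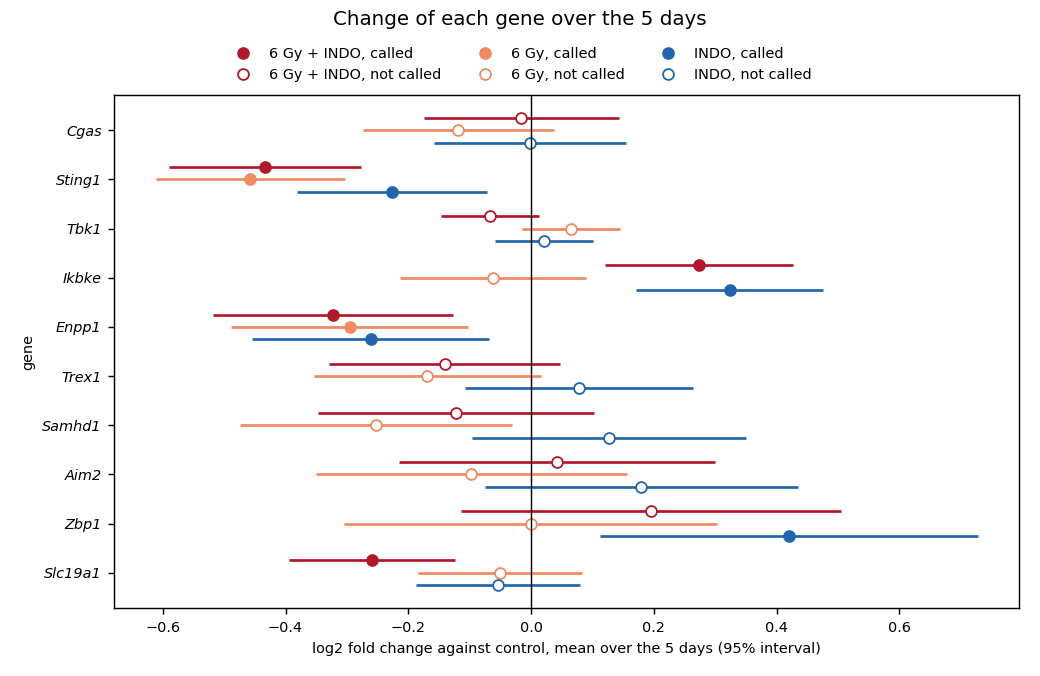
Log2 fold change averaged over the 5 days for the 10 members against control (6 Gy + INDO, 6 Gy, INDO), with 95% intervals; filled points were called at an adjusted p under 0.05. Sting1 and Enpp1 lie below 0 in all 3 treatments, and Ikbke lies above 0 in the 2 INDO-containing treatments.

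TREX1 is the exonuclease that degrades cytosolic DNA before cGAS can bind it. On day 1 Trex1 was at 12.6, 20.8, 12.7, 14.3 and 13.1 CPM in 6 Gy + INDO, 24.1, 23.4, 16.5, 14.7 and 15.7 CPM in 6 Gy and 26.2, 17.7, 19.99, 20.3 and 12.8 CPM in INDO, against 29.4, 15.8, 22.1 and 24.2 CPM in control tumors. Only 6 Gy + INDO was called, lower (-0.63 ± 0.21, adjusted p = 0.04), with 4 of its 5 tumors below every control tumor. On day 7 it was at 23.98, 14.7, 13.3, 20.4 and 25.5 CPM in 6 Gy + INDO, 21.4, 15.4, 13.8, 15.98 and 17.9 CPM in 6 Gy and 17.5, 17.7, 19.97, 24.3 and 23.4 CPM in INDO, against 26.7, 25.3, 25.96, 23.6 and 28.1 CPM in control tumors, and 6 Gy was called, with no overlap (-0.62 ± 0.16, adjusted p = 0.014). The day 7 call in 6 Gy passed under every alternative and without any tumor. The day 1 call in 6 Gy + INDO was lost without 6 Gy + INDO replicate 1 (0.093), 3 (0.089), 4 (0.06) or 5 (0.073) or control replicate 1 (-0.50, 0.14), 3 (0.072) or 4 (0.087), and with housekeeping scaling (0.083). On day 3 the log2 fold changes had the other sign and were not called (0.38 ± 0.21, adjusted p = 0.2, 0.36 ± 0.20, adjusted p = 0.28 and 0.46 ± 0.20, adjusted p = 0.16 in 6 Gy + INDO, 6 Gy and INDO). The change in 6 Gy + INDO differed between days (edgeR F test, adjusted p = 0.032), where 33.6% of all genes passed. That result was lost without day 1 (0.14), 3 (0.17), 7 (0.058) or 15 (0.068) and with no filter (0.054). Trex1 shares exon bases on the same strand with Atrip, so its counts are uncertain.

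SAMHD1 hydrolyzes dNTPs and limits nucleic acid that would otherwise be sensed, and its gene had the highest CPM of the 10. On day 7 Samhd1 was at 200, 96.5, 162, 193 and 205 CPM in 6 Gy + INDO, 151, 113, 126, 139.8 and 122 CPM in 6 Gy and 166, 193, 205, 220.3 and 183 CPM in INDO, against 187, 172, 185, 189 and 171 CPM in control tumors. All 6 Gy tumors lay below all control tumors (-0.47 ± 0.15, adjusted p = 0.043), while 3 of the 5 6 Gy + INDO tumors lay above every control tumor and 1, at 96.5 CPM, below every 6 Gy tumor. The 6 Gy call was lost without any 1 of 9 of the 10 tumors (all but 6 Gy replicate 1, adjusted p up to 0.11) and under 5 alternatives (up to 0.2). Against 6 Gy alone, the combination was higher on day 7 for Samhd1 (0.49 ± 0.15, adjusted p = 0.037) and for Zbp1 (0.76 ± 0.21, adjusted p = 0.025). These calls were lost without 8 single tumors for Samhd1 (6 Gy + INDO replicates 1, 3, 4 and 5 and 6 Gy replicates 1, 2, 3 and 5, up to 0.11) and 4 alternatives (up to 0.25), and without 4 for Zbp1 (6 Gy + INDO replicates 1, 3 and 5 and 6 Gy replicate 2, up to 0.063) and under 3 alternatives (up to 0.23). Per kilobase of exon, control levels were 18 CPM for Samhd1, 17.7 for Zbp1, 17.2 for Trex1, 15.4 for Sting1 and 14.4 for Tbk1, and between 1.91 and 3.84 CPM for Ikbke, Cgas, Slc19a1, Aim2 and Enpp1.

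T cell and dendritic cell markers were low in the same 6 Gy tumors on day 7. The summed level of 6 T cell markers ranged from 4.39 to 8.3 CPM in 6 Gy, against 12.6 to 43.8 CPM in control tumors, with 6 of 6 genes called lower, and from 3.95 to 21.2 CPM in 6 Gy + INDO, with 2 of 6 called lower. For 6 dendritic cell markers the ranges were 10.5 to 14 CPM in 6 Gy and 10.9 to 15.7 CPM in 6 Gy + INDO, against 16.2 to 35.5 CPM in control, with 6 and 5 of 6 called lower. Of all genes 10.3% were called lower in 6 Gy on that day and 21.2% in 6 Gy + INDO. Other lists fell in 6 Gy on that day too, with 7 of 7 macrophage and 5 of 5 endothelial markers called lower. So were 5 of 6 fibroblast and 5 of 5 adipocyte markers, against 0 of 6 neutrophil and 0 of 5 epithelial markers. The part of any of these cells in the day 7 values of Trex1, Samhd1 and Zbp1 was not tested.

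Enpp1 and Slc19a1 were lower than control wherever they were called, and several of these calls were lost under the alternatives. ENPP1 hydrolyzes extracellular cGAMP. On day 7 Enpp1 was at 9.31, 16.5, 14.6, 12.1 and 8.82 CPM in 6 Gy + INDO, 14.8, 13.2, 19.6, 15.9 and 10.9 CPM in 6 Gy and 19.1, 11.6, 20.4, 18.4 and 17.6 CPM in INDO, against 22.5, 28.9, 18.99, 12.7 and 25.9 CPM in control tumors. Control replicate 4 fell among the treated values and the other 4 control tumors lay above all 6 Gy + INDO tumors. The fall was called in 6 Gy + INDO (-0.75 ± 0.22, adjusted p = 0.01) and lost with housekeeping scaling (-0.49, 0.11) and with the receptor covariate (-0.93, 0.087). On day 1, INDO tumors (6.50, 11.9, 10.2, 10.8 and 10.5 CPM) lay below all control tumors (16.01, 14.6, 14.6 and 15.98 CPM) and just missed the threshold (-0.58 ± 0.20, adjusted p = 0.053). Over days Enpp1 fell in all 3 treatments: -0.32 ± 0.10, adjusted p = 0.0042 in 6 Gy + INDO, -0.30 ± 0.10, adjusted p = 0.02 in 6 Gy and -0.26 ± 0.10, adjusted p = 0.029 in INDO. These averages leaned on single days and tumors: without day 7 they were -0.19 (0.16), -0.22 (0.17) and -0.23 (0.11), and without replicate 2 the 6 Gy and INDO values were -0.16 (0.36) and -0.15 (0.33). The INDO value was also lost without day 1 (0.21), day 3 (0.18), replicate 3 (0.11) or replicate 5 (0.073), and the 6 Gy value without replicate 3 (0.054). With housekeeping scaling the values in 6 Gy + INDO and INDO were -0.12 (0.31) and -0.18 (0.16), and with no filter the INDO value was -0.25 (0.055). The Enpp1 level differed between days in INDO (edgeR F test, adjusted p = 1.8e-05) and 6 Gy + INDO (0.0031), where 25.9% and 43.6% of all genes passed. It did not pass in 6 Gy (0.11) or control (0.23). The 6 Gy + INDO result was lost without day 23 (0.26), and 6 Gy passed with housekeeping scaling (0.016).

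SLC19A1 carries reduced folate into cells and, in human cells, cGAMP. On day 1 Slc19a1 was at 12.8, 14.99, 14.5, 14.6 and 14.1 CPM in 6 Gy + INDO, 17.3, 14.9, 17.3, 14.5 and 19.4 CPM in 6 Gy and 16.1, 19.3, 19.8, 17.6 and 16.8 CPM in INDO, against 22.98, 22.4, 19.03 and 16.1 CPM in control tumors. The 6 Gy + INDO tumors lay below all control tumors and below all INDO tumors (0.838% of all genes for the second), and the first difference was called (-0.49 ± 0.11, adjusted p = 0.0027), under every alternative and without any tumor. On day 3 it was at 7.19, 7.64, 13.8 and 9.67 CPM in 6 Gy + INDO, 11.8, 12.6, 13.6, 13.8 and 16.02 CPM in 6 Gy and 13.4, 16.6, 11.6, 17 and 12.5 CPM in INDO, against 15.03, 14.1, 16.99, 11.1 and 18.6 CPM in control tumors. The day 3 call in 6 Gy + INDO (-0.63 ± 0.19, adjusted p = 0.026) turned on the tumors high in receptor reads: replicates 1, 2 and 4 had 7.19, 7.64 and 9.67 CPM and replicate 3, which was not high, had 13.8 CPM. Without the high tumors the value was -0.11 (0.9), and with receptor reads as a covariate it was 0.0069 (0.99). It was also lost without 6 Gy + INDO replicate 1 (0.1) or 2 (0.11) or control replicate 3 (0.063) or 5 (0.071) and with housekeeping scaling (-0.33, 0.11). The change over days, -0.26 ± 0.07, adjusted p = 0.00095, was -0.13 (0.21) without the tumors high in receptor reads, -0.08 (0.36) with the receptor covariate, -0.14 (0.09) without day 3 and -0.04 (0.6) with housekeeping scaling. The change differed between days (edgeR F test, adjusted p = 0.015), where 33.6% of all genes passed, but not without day 3 (0.051), day 15 (0.23) or the high tumors (0.24).

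Over days, Slc19a1 was also lower in 6 Gy + INDO than in 6 Gy alone (-0.21 ± 0.06, adjusted p = 0.0051, where 19.8% of all genes were called lower) and than in INDO alone (-0.21 ± 0.06, adjusted p = 0.026, 3.54%). Without the tumors high in receptor reads these were -0.04 (0.78) and -0.05 (0.84), and the sign of the first flips with housekeeping scaling (0.02, 0.89). Both were also lost without day 3 (0.13 and 0.47) or replicate 2 (0.057 and 0.2), and the second without days 1, 7 or 23 (0.083, 0.076 and 0.067) or replicates 1 or 4 (0.083 and 0.078). No other member was called between 6 Gy + INDO and INDO over days. The difference between these arms changed between days for Enpp1 (edgeR F test, adjusted p = 0.024) and Slc19a1 (0.038), where 24.8% of all genes passed. These tests were not repeated under the alternatives.

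Radiation and INDO alone were set against each other to order the arms. On day 3, Ikbke was at 35.8, 27.4, 27.3, 28.01 and 20.9 CPM in 6 Gy tumors, against 39.3, 41.2, 76.5, 44.5 and 40.9 CPM in INDO tumors, and was called lower (-0.81 ± 0.16, adjusted p = 0.0056, where 9.24% of all genes were), under every alternative and without any tumor. On day 7, 6 Gy tumors had less Ikbke (-0.72 ± 0.12, adjusted p = 0.0029), Zbp1 (-0.93 ± 0.22, adjusted p = 0.0095), Samhd1 (-0.64 ± 0.15, adjusted p = 0.012) and Sting1 (-0.46 ± 0.11, adjusted p = 0.013) than INDO tumors. Of all genes 9.14% were called lower there. The Sting1 call was lost without INDO replicate 4 (0.052) and the other 3 held without any tumor, while with all tumors in 1 fit Sting1 (0.091), Samhd1 (0.093) and Zbp1 (0.058) were lost and Ikbke was kept, and Sting1 was also lost with no filter (0.094). Over days 5 members were called lower in 6 Gy, where 13.7% of all genes were: Ikbke (-0.39 ± 0.07, adjusted p = 1.9e-05), Samhd1 (-0.38 ± 0.10, adjusted p = 0.0034), Sting1 (-0.23 ± 0.07, adjusted p = 0.011), Zbp1 (-0.42 ± 0.14, adjusted p = 0.019) and Trex1 (-0.25 ± 0.09, adjusted p = 0.024). The Ikbke result passed under every alternative and without any day or replicate number. The others were lost without day 7 (Samhd1 0.053, Sting1 0.1, Zbp1 0.19 and Trex1 0.081) and without single replicate numbers (3 or 5 for Samhd1, 2 or 5 for Sting1, and 3, 4 or 5 for Zbp1 and Trex1, with adjusted p up to 0.053, 0.12, 0.12 and 0.24), Sting1 also without day 3 (0.068), Zbp1 without day 15 (0.066) and Trex1 without day 15 (0.11) or 23 (0.16). Cgas, Tbk1, Enpp1, Aim2 and Slc19a1 were called on no day and not over days. Over days Sting1 was at a mean of 31.1 CPM in 6 Gy + INDO, 30.5 CPM in 6 Gy, 35.9 CPM in INDO and 42.2 CPM in control, so that the irradiated arms were lowest and did not differ from each other beyond error (0.02 ± 0.07, adjusted p = 0.89). With housekeeping scaling, which moved the median of all genes in this comparison by 0.24, 6 Gy + INDO was called higher than 6 Gy for Sting1 (0.25, 0.0046). Ikbke had the order INDO (43.6 CPM), 6 Gy + INDO (41.9 CPM), control (34.6 CPM) and 6 Gy (33.3 CPM), and neither the upper pair nor the lower pair differed beyond error.

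Whether the effects of IR and INDO add was tested as an interaction, the change with INDO in irradiated tumors minus the change with INDO in tumors without IR. Over days no member was called by edgeR, and 7.58% of all genes were. At an unadjusted p under 0.05 there were 2 members, Sting1 (0.25 ± 0.11, adjusted p = 0.15) and Tbk1 (-0.15 ± 0.05, adjusted p = 0.071), and DESeq2 called 0. On day 1 Sting1 was called (0.63 ± 0.15, adjusted p = 0.028), where 2.24% of all genes were: each agent alone had already lowered it to near the level of the combination, and the sum of the single changes was larger than the change with both. This call was lost without any 1 of 8 tumors (6 Gy + INDO replicates 2 and 3, 6 Gy replicates 4 and 5, INDO replicates 3 and 5, and control replicates 1 and 4), with adjusted p up to 0.081, with all tumors in 1 fit (0.3), with the receptor covariate (0.09) and without the tumors high in receptor reads (0.05 after rounding).

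Genes around the members were counted in 8 lists of the pathway, whose genes were all tested, on the mean over days in 6 Gy + INDO against control. These lists show how many neighbors of the members moved, and their direction depends on the scale, so each count is given also with housekeeping scaling. Of all genes 29.6% were called higher and 23.2% lower in this comparison. With housekeeping scaling 15250 of 29373 genes were called, 82.8% of them higher, and the median over all genes was 0.397. The median of every list lay below that. Of 12 other DNA sensors and cofactors, 0 were called higher and 8 lower (median -0.21), among them the DNA end-binding subunit Xrcc6 (-0.28 ± 0.06, adjusted p = 6.5e-05) and the helicases Dhx36 (-0.29 ± 0.07, 0.00022) and Ddx41 (-0.22 ± 0.05, 0.00038), and this flips to 3 higher and 0 lower with housekeeping scaling. Of 13 genes of STING trafficking and turnover, 1 was higher and 8 lower (median -0.23), led by Surf4 (-0.55, 1.4e-11), a cargo receptor that returns STING to the endoplasmic reticulum, Tollip (-0.41, 1.9e-07) and the calcium sensor Stim1 (-0.36, 3.7e-07), against 1 and 2 with housekeeping scaling, where Surf4 (-0.34) and Tollip (-0.19) were still called. Of 9 TBK1 adaptors and partners, 0 were higher and 2 lower, the adaptor Azi2 (-0.27, 7.1e-06) and the transcription factor Irf3 (-0.21, 0.0084), and this flips to 3 higher and 0 lower. Of 9 other nucleases, 1 was higher and 6 lower, among them Rnaseh2a (-0.45, 8.1e-07), a subunit of RNase H2, and the lysosomal DNase Dnase2a (-0.21, 0.00027), with Dnase1 higher (0.32, 0.0023), against 2 and 2 with housekeeping scaling. Of 12 genes of cGAMP hydrolysis and transport, 0 were higher and 5 lower, among them Enpp3 (-0.96 ± 0.17, 3e-06), a relative of Enpp1, and the transporters Slc46a1 (-0.41, 2e-05) and Slc46a3 (-0.44, 1e-04), against 2 and 2. Of 8 inflammasome genes, 0 were higher and 5 lower, among them Nlrc4 (-0.48, 0.00022), the pore-forming Gsdmd (-0.26, 0.00078) and Il1b (-0.86 ± 0.25, 0.0023), against 1 and 1. Of 6 partners of ZBP1 in cell death, 0 were higher and 4 lower, among them the kinases Ripk3 (-0.74, 3.8e-10) and Ripk1 (-0.25, 1.7e-06) and the protease Casp8 (-0.27, 1.9e-05), which flips to 2 higher and 1 lower, Ripk3 being still called (-0.53).

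Genes that the pathway switches on were called higher in 6 Gy + INDO at about the share of all genes. Of 10 interferon outputs, 3 were called higher, beside 29.6% of all genes, and 0 lower, beside 23.2%: the antiviral genes Oasl1 (0.50 ± 0.10, adjusted p = 5.3e-05) and Rsad2 (0.37 ± 0.16, 0.048) and the chemokine Ccl5 (0.70 ± 0.22, 0.0054). The list's median was 0.17, beside 0.19 over all genes. Housekeeping scaling gave 6 higher and 0 lower, with medians of 0.384 and 0.397. With the receptor covariate the medians were 0.204 for the list and 0.0116 over all genes. Without the tumors high in receptor reads they were 0.144 and -0.0134, so the level over all genes depended on those tumors. In 6 Gy, where 9.19% of all genes were called higher and 10.6% lower, 1 was higher and 1 lower, and in INDO, where 16.8% and 17.4% were, 1 was higher and 0 lower. The list's median was 0.168 in 6 Gy and 0.205 in INDO, beside 0.0264 and 0.0727 over all genes. The type I interferon gene Ifnb1 itself was at 0.30 ± 0.44 (0.63). In 6 Gy the other lists had 2 higher and 0 lower of the DNA sensors, 0 and 5 of STING trafficking, 2 and 0 of the TBK1 adaptors, 1 and 5 of the nucleases, 1 and 3 of cGAMP hydrolysis and transport, 0 and 2 of the inflammasome and 0 and 3 of the ZBP1 partners.

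The genes with the most similar profiles over the 20 group means were found by Pearson correlation among 13370 genes, as a description in which the groups share days, treatments and libraries. Sting1 was most like the Notch modifier Mfng (r = 0.928) and Acvrl1 (0.925), a receptor of endothelial cells. Cgas was most like Mtfr2 (0.931) and Lyar (0.93), a nucleolar protein. Tbk1 was most like Zdhhc17 (0.948) and Cnot2 (0.946), and Ikbke like Gm26586 (0.914) and the nonmuscle myosin gene Myh9 (0.888). Aim2 was most like Tnfsf10 (0.964), which encodes the death ligand TRAIL, and 9930111J21Rik2 (0.962), and Zbp1 was most like Il18bp (0.938), an inhibitor of IL-18, and Trafd1 (0.934). Il18bp was also the closest gene to Samhd1 (0.911), followed by Rubcnl (0.898). Trex1 was closest to the MHC class I gene H2-T24 (0.943) and Shisa5 (0.879), Enpp1 to Mex3b (0.887) and Thg1l (0.884), and Slc19a1 to Rad9a (0.94) and Scap (0.934). Among members the closest pairs were Aim2 and Zbp1 (0.873), Samhd1 and Zbp1 (0.825) and Samhd1 and Aim2 (0.726), and Cgas and Tbk1 ran opposite to each other (-0.848).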

How the data were processed

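Total RNA was measured in 94 4T1 tumors. The deposited table holds expected counts per gene, which the authors made with cutadapt, STAR and Partek 11.0.24.0328 on mm10 per the labels (the submitters' processing notes give no roles or order), from stranded libraries. Here they were rounded to whole numbers, and 629 of 49080 genes were at 0 in all tumors. Counts were tested with edgeR 4.0.16 in R 4.3.3 (limma 3.58.1): filterByExpr, TMM, quasi-likelihood F test, Benjamini-Hochberg adjustment over all genes, threshold 0.05. Each day was fitted alone (22276, 21814, 21874, 21195 and 21133 genes on days 1, 3, 7, 15 and 23), and all 94 tumors together for means over days and for differences between days (29373 genes). Intervals are 95%. The scripts were tested on simulated data.

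Alternatives were DESeq2 1.42.0, RLE size factors, scaling to 14 housekeeping genes, no filter, 1 fit of all tumors, the study's rule of 2-fold and p under 0.05, the replicate number as a block, receptor reads as a covariate, leaving out tumors over 300 CPM of receptor reads, and leaving out each tumor, day or replicate number. The members, gene lists and tests were chosen with earlier results of these data known. All 10 members were tested in every comparison, and calls between treatments are given as well as those against control. Single-tumor values are given for days with a call against control, or for the day of smallest adjusted p, and the 2 most similar genes per member and up to 3 called genes per list are named. The paper describes injection into the right hind limb of each mouse, and the labels do not name the mouse of each tumor. The p-values set differences between groups against the spread between tumors within them. Depth differed up to several fold between libraries, and lower counts widen the error of low genes such as Aim2. Median depth was lower in the arms with INDO, and its part in the differences of these arms was not tested. Gene positions and overlaps were read from GENCODE M21 (GRCm38).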

Additional observations from a re-analysis of the deposited data

Results flagged for a closer look

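In 13 of 180 sets of 4 or 5 tumors (1 gene in 1 group), a single tumor stood apart from the rest by Dixon's test, where chance gives about 1 in 20. For Cgas these were INDO day 1 replicate 3 at 17.05 CPM (others 19.67 to 20.64) and 6 Gy day 3 replicate 5 at 20.66 CPM (12.89 to 14.38). For Tbk1 they were 6 Gy day 7 replicate 1 at 58.79 CPM (52.41 to 53.89), INDO day 7 replicate 2 at 49.19 CPM (55.62 to 57.25) and 6 Gy day 23 replicate 2 at 99.16 CPM (60.96 to 63.81). Ikbke in INDO day 3 replicate 3, the tumor with high T and B cell markers, was at 76.47 CPM (39.31 to 44.55). Trex1 in 6 Gy + INDO day 1 replicate 2 was at 20.78 CPM (12.59 to 14.26). Samhd1 was at 227.2 CPM in INDO day 1 replicate 1 (107.1 to 139.2) and 302.2 CPM in 6 Gy day 3 replicate 1 (107.6 to 154.2). Aim2 in control day 7 replicate 4 was at 13.22 CPM (6.492 to 8.098). Zbp1 was at 57.28 CPM in 6 Gy + INDO day 1 replicate 2 (20.8 to 24.45), 40.95 CPM in 6 Gy + INDO day 7 replicate 2 (90.46 to 110.0) and 76.72 CPM in 6 Gy day 7 replicate 1 (44.97 to 54.08).

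The change against control differed between days in 6 Gy + INDO for Sting1 (edgeR adjusted p = 0.006), Slc19a1 (0.015) and Trex1 (0.032), and in 6 Gy for Sting1 (0.041). Of all genes 33.6% passed this test in 6 Gy + INDO and 3.82% in 6 Gy. Each of these results was lost under some of the settings given above. On day 1 the Sting1 change with INDO differed between irradiated and unirradiated tumors, by 0.63 ± 0.15 on the log2 scale (edgeR adjusted p = 0.028). Of all genes 2.24% were called there, and this call was also lost under settings given above.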

How the results depend on the processing

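Counts below are members called, and 2-fold stands for the rule of 2-fold and p under 0.05. The share of all genes called is not given for most alternatives, so these counts do not set the members against other genes. That rule gave 0 members on days 1 and 7 and over days in each treatment against control, 0 in 6 Gy on day 3, 1 in 6 Gy + INDO and 1 in INDO on day 3, and 0 over days against 6 Gy and against INDO. In 6 Gy + INDO against control, day 3 gave 0 when receptor reads entered as a covariate and 0 once the tumors high in them were left out, day 7 gave 1 with the covariate, and day 15 gave 1 with DESeq2, 1 with RLE size factors and 1 with the replicate block; the count over days was 6 without day 1. In 6 Gy, day 1 gave 2 with housekeeping scaling, day 7 gave 2 with RLE, housekeeping scaling, no filter, the covariate or 1 fit, and the count over days was 4 without day 3 and 1 without day 7. In INDO, day 1 gave 2 with DESeq2, RLE, housekeeping scaling or the block, day 3 gave 2 with DESeq2 and 1 with 1 fit, day 7 gave 1 with 1 fit, housekeeping scaling, no filter or the block, and the count over days was 2 with housekeeping scaling or without day 1, and 1 without day 3 or day 7. Against 6 Gy, housekeeping scaling gave 7 over days, where it called 15111 of 29373 genes, 91.5% of them higher. Against INDO the count was 0 with housekeeping scaling, the covariate, without day 3, without day 7 or without the tumors high in receptor reads, 2 without day 1 and 3 without day 15. The interaction over days gave 1 with housekeeping scaling, the covariate or without those tumors, and 2 without day 15. Leaving out a tumor gave 2 to 3, 1 to 3 and 2 to 3 members in 6 Gy + INDO on days 1, 3 and 7, 1 to 2, 0 to 1 and 2 to 4 in 6 Gy, 1 to 1, 0 to 0 and 0 to 2 in INDO, and 0 to 0 in all on days 15 and 23. Leaving out a replicate number gave 3 to 4, 1 to 3 and 1 to 4 over days, 2 to 3 against 6 Gy, 0 to 2 against INDO and 0 to 0 for the interaction. Directions reversed for Slc19a1 in 6 Gy + INDO on day 3 with the covariate (0.0069), and with housekeeping scaling for Tbk1 in 6 Gy + INDO on day 7 (0.2569) and over days (0.1428), Cgas over days (0.2018), and, against 6 Gy over days, Tbk1 (0.1054) and Slc19a1 (0.0172). Causes were not tested.

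Replicate numbers did not pair the tumors: the correlation of deviations averaged 0.0418 for the same number and -0.00983 for others, and 0 of 30 pairs of groups had every correlation over 0.1. With the replicate number as a block, 4 calls were lost that stand above: Trex1 in 6 Gy + INDO on day 1 (adjusted p = 0.064), Ikbke in INDO on day 7 (0.05), and, in 6 Gy + INDO against 6 Gy, Ikbke on day 3 (0.056) and Samhd1 on day 7 (0.057). With 3 to 5 tumors a group, only differences well beyond the spread of a group could be called.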
